A study of Mus musculus with 14 samples.

Results

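The effect of losing Atoh1 that colon and ileum crypts have in common was measured by fitting 1 knockout effect across both tissues, with tissue as an additive block. All libraries of intestinal crypts titled KO or WT entered, 8 of the 14 libraries of the series, with 2 KO and 2 WT libraries per tissue. The KO crypts came from mice with both Atoh1 alleles floxed (Atoh1lox/lox) and the WT crypts from littermates with 1 floxed allele (Atoh1lox/WT). Both genotypes carried VilCreERT2, a tamoxifen-dependent Cre recombinase under the villin promoter, which is active in the gut epithelium and not in immune cells or stroma. Mice were 6 to 8 weeks old, and strain is not given in the sources used here. WT therefore means a heterozygous floxed mouse with the same Cre, and an effect of losing 1 allele or of Cre itself falls outside the comparison. The other 6 libraries, sorted ATOH1-GFP cells, entered only 1 alternative fit.

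ATOH1 is a basic helix-loop-helix transcription factor that binds E-box sequences as a dimer with E proteins. In the intestinal crypt, progenitors that keep ATOH1 become secretory cells (goblet, Paneth and enteroendocrine cells). Notch signalling, which secretory cells present to their neighbours through Delta ligands, represses Atoh1 in progenitors that become absorptive cells.

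Gene counts were 8848660 to 10870416 per library. All libraries carried epithelial markers (Epcam at 1706 to 2545 CPM, the gene's counts scaled to library size by TMM over the 8 libraries) and the colon libraries carried Hoxd13 at 57.4 to 66.9 CPM, against 0 to 0.206 CPM in ileum. The KO and WT libraries of a tissue were numbered 1 and 2, and the table names of colon and ileum libraries with the same genotype and number share an identifier. The difference between number 1 and number 2 correlated across genes between colon and ileum in KO (Pearson r = 0.336) and in WT (r = 0.295), against −0.0583 to 0.0718 for the other pairs of groups. The labels do not say that libraries came from separate animals. If colon and ileum of a number came from 1 animal, KO and WT hold 2 animals each, and the p-values below measure the spread between libraries rather than animals. Xist stood at 891 and 1151 CPM in colon KO 2 and ileum KO 2 and at 2.42 to 6.88 CPM in the other 6 libraries, and the Y-linked Ddx3y stood at 0.181 and 0.0993 CPM against 44.2 to 59.2 CPM, so these 2 KO libraries differ in sex from the rest. Without both, 7 genes were called in the fit described next, all lower in KO, and the part of sex in the calls was not tested further. Ileum WT 2 stood farthest from the others on the second principal component (−64.6, where the rest lay between −21.5 and 35.8).

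The shared fit called 356 of 14415 genes tested (2.47%) at an edgeR adjusted p under 0.05, of which 253 were lower in KO (1.76%) and 103 higher (0.715%). Falls were the larger changes. The called falls had a median shared log2 fold change of −1.48 (from −7.35 to −0.32) and the called rises one of 0.51 (from 0.25 to 3.03), against a median of 0.01 over all genes tested. In 242 of the 253 falls (1.68% of genes tested) every KO library lay below every WT library in colon and again in ileum, and in 101 of the 103 rises (0.701%) every KO library lay above. Of all genes tested, 8.41% had KO below WT in both tissues in this sense, 8.93% had KO above (17.3% together) and 2.98% were separated in opposite directions, so separation alone, with 2 libraries a group, is common. Both tissues changed over 2-fold in 133 of the 242 falls and in 5 of the 101 rises, which were Rims4, Qpct, Mcpt1, Bmp8b and Mcpt2.

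The falls were deeper in ileum for 169 of the 242 genes, with median log2 fold changes of −1.25 in colon and −1.50 in ileum. For the 101 rises these medians were 0.48 and 0.52. The difference in knockout effect between the tissues was tested with an interaction term. In edgeR with the filter on low counts, none of the 343 genes that moved the same way passed after adjustment. Of these, 54 of the falls and 4 of the rises had an unadjusted p under 0.05. Of all genes tested 1 passed, Anxa13 (0.00694%). With DESeq2 the interaction called 56 genes, Atoh1, Hepacam2, Bcas1 and Spdef among them. Without a filter on low counts edgeR called 9, Atoh1, Ano7 and Gcg among them. A difference in depth between the tissues for such genes thus depended on the tool and on the filter. Over all 14415 genes, the log2 fold changes of colon and ileum correlated at Pearson r = 0.45 (Spearman 0.38), a description across genes that are not independent replicates.

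**Figure D1:**
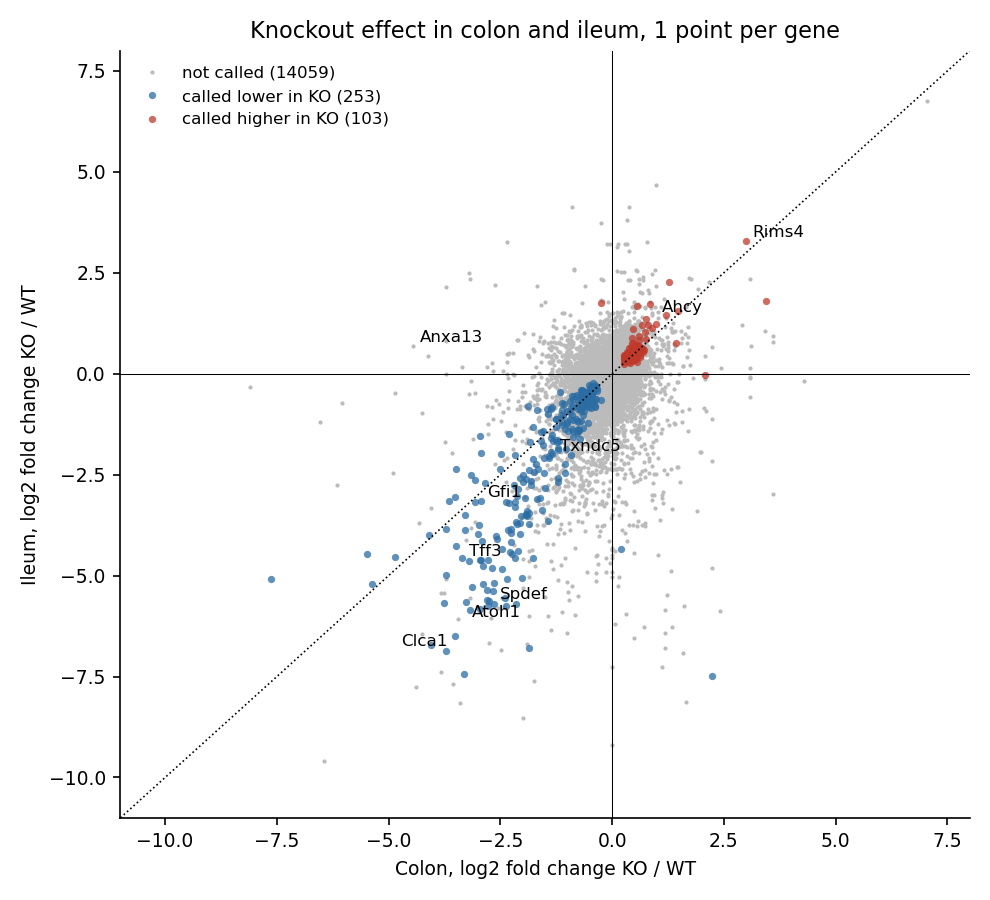
Log2 fold change KO against WT in colon (horizontal axis) and in ileum (vertical axis), 1 point per gene tested, from the fit of the 4 groups. The 253 genes called lower in the shared fit are blue, the 103 called higher red and the rest grey, and the dotted line marks equal change. Blue points lie mostly below the dotted line, where the ileum change is deeper. Red points lie mostly close to 0 in both tissues, with a few, such as Rims4, farther out.

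Atoh1 itself (ENSMUSG00000073043) was low in every KO library. It stood at 81.1 and 58.3 CPM in colon WT, 6.70 and 7.62 CPM in colon KO, 52.5 and 51.2 CPM in ileum WT and 1.34 and 0.695 CPM in ileum KO. No KO library came near a WT library, and the residual level was higher in colon than in ileum. The shared fall was 17.0-fold (log2 fold change −4.09, SE 0.44, edgeR adjusted p = 0.0123). Without colon KO 1 or ileum KO 1 the call was lost, with a highest adjusted p of 0.0589.

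Of 17 transcription factors and cofactors of the secretory lineage tested, 8 were called lower, Atoh1 included, and none higher. This is 47.1% called lower against 1.76% of all genes, and the median shared log2 fold change of the 17 was −0.79. Since these are whole crypts, fewer secretory cells and less RNA per secretory cell cannot be told apart, here and for every gene group below. Cbfa2t3, a transcriptional corepressor of the MTG family, stood at 25.7 and 35.6 CPM in colon WT, 3.81 and 4.26 CPM in colon KO, 17.7 and 25.3 CPM in ileum WT and 1.23 and 1.19 CPM in ileum KO. It fell 10.6-fold (log2 −3.41, SE 0.28, edgeR adjusted p = 0.00471). Gfi1, a zinc-finger repressor that keeps secretory progenitors from endocrine fate, stood at 12.4 and 24.2 against 2.51 and 2.27 CPM in colon (WT, then KO) and at 15.1 and 15.8 against 1.95 and 1.49 CPM in ileum. It fell 8.24-fold (SE 0.24 in log2, edgeR adjusted p = 0.00471), by nearly the same log2 amount in colon (−2.94) and ileum (−3.16). For both genes the KO libraries stayed below every WT library of either tissue, and both remained called without any 1 of the 8 libraries (highest adjusted p = 0.0272 for each).

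The other called regulators were Bhlha15 (Mist1), a factor of professional secretory cells, Spdef, an ETS factor needed for goblet cells to mature, Foxa3, and the membrane-bound factors Creb3l1 and Creb3l4. Bhlha15 fell 8.83-fold (adjusted p = 0.00909) with equal depth in both tissues, log2 −3.07 in colon and −3.18 in ileum. Spdef fell 12.5-fold (adjusted p = 0.0332), from 122 and 165 to 20.7 and 24.9 CPM in colon and from 54.2 and 119 to 2.67 and 1.49 CPM in ileum. Its KO libraries lay below WT in both tissues, but its call remained in only 1 of the 8 fits that leave out a library (highest adjusted p = 0.112). Creb3l4 fell 8.28-fold, Foxa3 2.75-fold and Creb3l1 2.09-fold. The related Creb3l2, which was not in the list and was chosen after its values were seen, fell as well (log2 −0.80, adjusted p = 0.0259). Several regulators expressed more widely in the crypt gave no call: Klf4 had a log2 fold change of 0.07, Sox4 0.20, Tox3 0.03, Foxa1 −0.19 and the MTG member Cbfa2t2 −0.03. Xbp1, a regulator of secretory capacity, had −0.38 (adjusted p = 0.101) and Sox9 −0.74 (adjusted p = 0.257). The number of called regulators ranged from 2 without colon KO 1 to 8 without ileum WT 2. It was 4 without a filter on low counts and 4 in limma-voom with the shared number as a random effect. Neither of these fits called Spdef, Foxa3, Creb3l1 or Creb3l4. When colon and ileum counts were summed per number, 2 regulators were called.

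**Figure D2:**
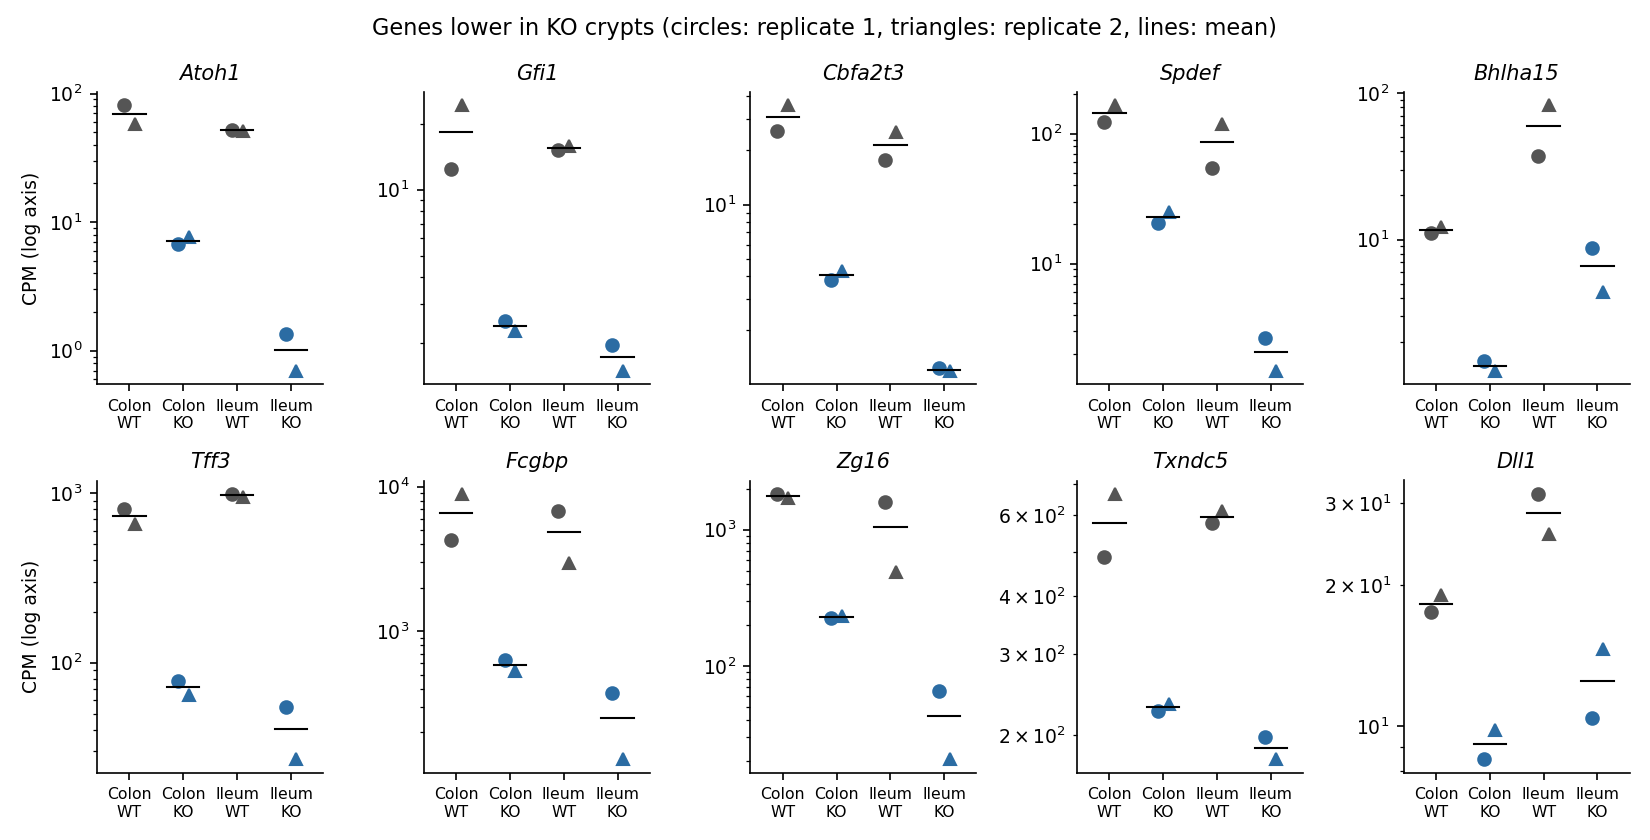
CPM on a log axis for 10 genes lower in KO crypts, 1 panel per gene, with WT in grey and KO in blue for each tissue, circles for replicate 1, triangles for replicate 2 and lines for the mean of 2 libraries. In each panel both KO libraries lie below both WT libraries of the same tissue, and the gap in Gfi1 and Bhlha15 is alike in colon and ileum while that in Atoh1 and Spdef is wider in ileum.

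Of the 16 listed regulators of enteroendocrine cells, the hormone-secreting cells of the epithelium, 10 were tested. Neurog3, Insm1 and Neurod1 were called lower (30% against 1.76% of all genes) and none higher. Neurog3, the factor that starts endocrine differentiation, had 25 and 23 counts in colon WT and none in colon KO, and 19 and 22 counts in ileum WT against 0 and 1 in ileum KO (edgeR adjusted p = 0.0088). Insm1, a zinc-finger factor that acts after Neurog3, fell 5.80-fold (log2 −2.54, SE 0.36, adjusted p = 0.0207), and Neurod1 fell 3.98-fold (adjusted p = 0.0303). Rfx6 at log2 −1.81 and St18 at −2.49 were below WT in every library of both tissues without passing (adjusted p = 0.0568 and 0.0742). Hes6 was above WT in both tissues (log2 0.41, adjusted p = 0.0601), and Rfx3 had 0.24 and overlapped. Without colon KO 1 or ileum KO 2 none of the endocrine regulators was called, and without colon WT 2 or ileum KO 1 only 1 was. DESeq2 called 5 lower and 1 higher, and the fit without a filter on low counts 4 lower and 1 higher. Sums of the colon and ileum counts per number gave none.

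Of 19 genes of the Notch pathway tested, 1 fell and 1 rose (5.26% each, against 1.76% and 0.715% of all genes), and the median was −0.16. Dll1, a Delta ligand presented by secretory cells, stood at 17.5 and 19.1 CPM in colon WT, 8.47 and 9.80 in colon KO, 31.4 and 25.8 in ileum WT and 10.4 and 14.6 in ileum KO. The groups did not overlap in either tissue, and Dll1 fell 2.14-fold (SE in log2 0.14, adjusted p = 0.0139), though not called without colon KO 1 or colon WT 2 (highest adjusted p = 0.0625). Lfng, a fringe glycosyltransferase that alters which ligands Notch answers to, rose 1.71-fold, from 18.4 and 23.0 to 31.3 and 31.7 CPM in colon and from 14.5 and 21.8 to 30.9 and 38.8 CPM in ileum (log2 0.77, SE 0.16, adjusted p = 0.0468). Lfng was called in 1 of the 8 fits that leave out a library, that without ileum WT 2 (highest adjusted p = 0.147). The receptor Notch1 lay above WT in both tissues without passing (log2 0.69, adjusted p = 0.0954). The Notch target Hes1, a repressor of Atoh1, had a log2 fold change of −0.22 (SE 0.09, adjusted p = 0.273), and the ligand Dll4 −1.08 in colon and 0.03 in ileum. With all 14 libraries or on sums per number, no gene of the list was called in either direction. The fits without genes above 1% of a library, by the average of the tissue effects or with the shared number as a random effect called 1 lower and 0 higher. DESeq2 called 1 lower and 3 higher.

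Of the 23 gene lists, goblet cell products had the highest share of called genes. Of 29 tested, 17 were called lower (58.6% against 1.76% of all genes) and none higher. The KO libraries lay below WT in both tissues in 26 of the 29 (8.41% of all genes did). The median shared log2 fold change was −3.35, with −2.70 in colon and −4.27 in ileum. Tff3, a trefoil peptide of mucus, stood at 808 and 659 CPM in colon WT, 77.8 and 64.8 in colon KO, 989 and 947 in ileum WT and 54.5 and 26.8 in ileum KO, a 15.6-fold fall (SE 0.35 in log2, adjusted p = 0.0088). The 4 WT libraries lay within 659 to 989 CPM and the 4 KO libraries within 26.8 to 77.8 CPM, and Tff3 was called without any 1 library. Fcgbp, a large mucus protein that binds the Fc part of immunoglobulin G, fell 14.8-fold, from 4239 and 8915 to 629 and 532 CPM in colon and from 6770 and 2965 to 374 and 130 CPM in ileum (adjusted p = 0.0207). Its WT libraries spread over about the same range in both tissues, far above KO.

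Clca1, a secreted protein that processes mucus, fell 32.1-fold (adjusted p = 0.0493) and had a wide spread in WT, at 3410 and 12251 CPM in colon and 3188 and 9892 CPM in ileum. Against these, KO stood at 619 and 745 CPM and at 100 and 43.9 CPM. It was called in 1 of the 8 fits that leave out a library. Zg16, a lectin of the mucus, fell 13.6-fold from 1835 and 1719 to 226 and 234 CPM in colon and from 1595 and 493 to 65.0 and 20.6 CPM in ileum (adjusted p = 0.0355). Hepacam2 fell 15.8-fold, Capn9, a calpain protease of the gut, 15.5-fold, Bcas1 11.1-fold, Sval1 8.27-fold and Slc12a8, a member of a cation-chloride cotransporter family, 7.20-fold. Slc12a8 and Sval1 were called without any 1 library. Muc2, the gel-forming mucin itself, was below WT in both tissues but did not pass (log2 −3.21, SE 0.69, adjusted p = 0.0692), with WT at 740 and 2044 CPM in colon and 362 and 700 in ileum against KO at 241 and 363 and at 43.2 and 12.6 CPM. Ang4 (log2 −6.08, adjusted p = 0.0985) and Spink4 (−4.35, adjusted p = 0.0808) likewise lay below WT without passing. The number of goblet genes called was 3 without colon KO 1 or ileum KO 1, 4 without colon WT 2, 5 without colon KO 2, 6 without ileum KO 2, 11 without ileum WT 1 and 14 without colon WT 1 or ileum WT 2. It was 9 without a filter on low counts or on sums per number, and 27 with DESeq2.

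Other strong falls came from genes outside the goblet list with at least 10 CPM in both tissues. A4gnt, which adds the terminal N-acetylglucosamine of gland mucins, fell 18.2-fold, from 79.6 and 78.4 to 5.58 and 10.3 CPM in colon and from 14.2 and 60.7 to 0.411 and 0 CPM in ileum (adjusted p = 0.0459). Hpd, an enzyme of tyrosine breakdown, fell 13.9-fold, from 49.6 and 58.9 to 4.09 and 7.62 CPM in colon and from 39.5 and 58.6 to 2.26 and 1.69 CPM in ileum (SE 0.35 in log2, adjusted p = 0.0088). Hpd lost its call in 1 of the 8 fits (highest adjusted p = 0.0540), whereas A4gnt kept it in 1. Pla2g2f, a secreted phospholipase, fell 11.2-fold (adjusted p = 0.0207). Rapgef3 (Epac1), a cyclic AMP-gated activator of the small GTPase Rap1, stood at 12.9 to 24.7 CPM in WT and 0.497 to 3.18 CPM in KO and fell 11.8-fold (adjusted p = 0.0088). Rap1gap, an inactivator of Rap1 singled out after its values were seen, fell from 144 and 182 to 27.9 and 29.8 CPM in colon and from 77.6 and 115 to 23.7 and 13.8 CPM in ileum (log2 −2.43, SE 0.20, adjusted p = 0.00534). Rap1gap was called without any 1 library.

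The promoters of the first named falls that the RefSeq table (GRCm38.p6) lists are shown because ATOH1 is known to bind E-boxes and these genes fell together. They run from 250 bases before to 50 bases after the annotated start, on the plus strand, at chr7:28070986-28071285 for Fcgbp, chr9:99612252-99612551 for A4gnt and chr6:64728875-64729174 for Atoh1. Capitals mark CAGCTG or CAGATG on either strand, which are both instances of the general E-box CANNTG.
Fcgbp: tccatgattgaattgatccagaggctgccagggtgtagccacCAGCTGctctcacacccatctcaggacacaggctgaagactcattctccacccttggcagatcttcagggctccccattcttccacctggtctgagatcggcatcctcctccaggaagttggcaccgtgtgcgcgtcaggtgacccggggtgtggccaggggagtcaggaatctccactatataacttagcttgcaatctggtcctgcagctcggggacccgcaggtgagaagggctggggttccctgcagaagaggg
A4gnt: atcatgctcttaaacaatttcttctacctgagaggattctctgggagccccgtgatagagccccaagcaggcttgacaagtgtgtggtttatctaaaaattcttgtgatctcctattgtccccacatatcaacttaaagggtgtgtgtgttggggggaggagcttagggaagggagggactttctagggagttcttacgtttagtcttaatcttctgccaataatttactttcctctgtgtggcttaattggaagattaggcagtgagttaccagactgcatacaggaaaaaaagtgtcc
Atoh1: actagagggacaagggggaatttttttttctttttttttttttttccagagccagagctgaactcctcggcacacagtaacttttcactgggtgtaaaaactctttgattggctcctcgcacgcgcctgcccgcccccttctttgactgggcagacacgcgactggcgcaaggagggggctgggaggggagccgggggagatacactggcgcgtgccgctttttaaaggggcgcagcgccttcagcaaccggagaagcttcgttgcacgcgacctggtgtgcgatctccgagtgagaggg
The Fcgbp window held 1 CAGCTG, starting at position −208 from the start, and the windows of A4gnt and Atoh1 held neither sequence. Of the 166 same-direction falls with a listed promoter, 24.7% held CAGCTG or CAGATG, against 24.63% of the 10238 promoters of all genes tested and 29.73% of the 74 promoters of the same-direction rises. CANNTG was present in 68.67% of the falls, 60.81% of the rises and 63.86% of all. These matches describe the letters in the windows and no binding.

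Paneth cell products are the antimicrobial cargo of small intestinal crypt bases. Of 21 tested, 11 were called lower (52.4% against 1.76% of all genes) and none higher. Their median was −1.86 in colon and −3.97 in ileum. The shared effect for most of these rests on ileum, since colon crypts lack Paneth cells and held at most 2.24 CPM of each of the defensins Defa29, Defa22 and Defa21. Defa29 stood at 138 and 121 CPM in ileum WT and 12.6 and 6.95 CPM in ileum KO (adjusted p = 0.0088), and in colon at 0.449 and 0 CPM in the WT libraries against 0 and 0.0907 CPM in the KO libraries, where the groups overlapped. Near-identical defensin copies share reads, so the split of counts among them is uncertain. In 8 of the 21 the KO libraries lay below WT in both tissues (8.41% of all genes did), and these included genes with clear levels in colon. Nupr1, a stress-induced chromatin protein, fell 4.19-fold, from 98.0 and 123 to 26.2 and 39.4 CPM in colon and from 55.3 and 78.2 to 15.3 and 9.53 CPM in ileum (adjusted p = 0.0143). Copz2, a coat protein of Golgi vesicles, fell 9.94-fold (adjusted p = 0.023), log2 −2.47 in colon and −4.84 in ileum. The count of called members was 1 without colon KO 1 or ileum KO 1 and 12 without ileum WT 1. It was 4 when the effects of the 2 tissues were averaged, 4 without a filter on low counts, 5 with all 14 libraries and 0 on sums per number. Defa29, Defa22 and Defa21 were not called in the averaged fit, with all 14 libraries or on sums (highest adjusted p = 0.931, 0.555 and 0.658).

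Of the deep crypt secretory genes, the colonic counterparts of Paneth cells, 3 of 10 fell (against 1.76% of all genes): Dll1, Agr2 and the growth factor Egf. Egf fell 4.74-fold with a deeper log2 change in colon (−2.48) than in ileum (−1.99), at 4.49 and 6.33 against 0.558 and 1.36 CPM in colon and 3.42 and 4.30 against 0.822 and 1.09 CPM in ileum (adjusted p = 0.0209). Agr2, a disulfide isomerase that mucin folding needs, fell 9.43-fold (adjusted p = 0.043), and no fit that leaves out a library called it (highest adjusted p = 0.156). Reg4, a secreted lectin, lay below WT in both tissues with a wide spread, 660 and 163 against 34.9 and 23.3 CPM in colon and 22.7 and 2683 against 5.96 and 10.2 CPM in ileum (adjusted p = 0.15). None of the 10 was called without colon KO 1 or colon WT 2 or on sums per number, 1 was without colon KO 2, ileum KO 1 or ileum KO 2, and 4 were without ileum WT 2. Egf was called in 3 of the 8 fits that leave out a library, and DESeq2 called 8 of the 10.

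Of the hormone genes and granule protein genes of enteroendocrine cells, 1 of 13 and 6 of 21 tested fell. These are 7.69% and 28.6%, against 1.76% of all genes. The hormone gene was Gcg, which encodes proglucagon. It stood at 62.3 and 53.6 CPM in colon WT, 25.1 and 31.0 in colon KO, 58.7 and 55.1 in ileum WT and 9.87 and 10.9 in ileum KO (3.26-fold, adjusted p = 0.033), and no fit that leaves out a library called it (highest adjusted p = 0.131). WT levels of Gcg were alike in the tissues and the KO level was lower in ileum, with log2 −1.04 in colon and −2.45 in ileum (interaction adjusted p = 0.31). Without a filter on low counts the edgeR interaction did call Gcg. Pyy, the gene of peptide YY, had −0.48 in colon and −2.24 in ileum and did not pass (adjusted p = 0.163). The called granule genes included Scgn, Vwa5b2, Ptprn2, Pcsk1 and Chga. Ptprn2, a membrane protein of dense-core granules, fell 11.6-fold (adjusted p = 0.0317), and Pcsk1, the prohormone convertase, fell 2.09-fold by the same amount in colon (−1.09) and ileum (−1.04). Ffar2, a short-chain fatty acid receptor singled out after its values were seen, had a log2 fold change of −3.19 (adjusted p = 0.00909) and fell from 9.87 and 13.3 to 1.77 and 2.09 CPM in colon and from 6.44 and 11.3 to 0.514 and 0.497 CPM in ileum. In sorted colon ATOH1-GFP cells, scaled together with the crypts, mean Ptprn2 was 107 CPM against 57.3 CPM in colon WT crypts. By the same comparison Pcsk1 was 34.9 against 12.4 CPM and Ffar2 76.2 against 8.90 CPM. Chga was lower in the sorted cells (2.42 against 30.6 CPM), as were Scgn (0.890 against 1.49) and Vwa5b2 (0.914 against 2.73). Which cells carried these transcripts in the crypts was not tested. None of the granule genes was called without colon KO 1, colon WT 2, ileum KO 1 or ileum KO 2 or on sums per number, and 2 were with the shared number as a random effect. Of the hormones, DESeq2 called 7 and the average of the tissue effects 5.

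Tuft cells are a chemosensory lineage of the same epithelium. None of their 16 genes tested passed in the shared edgeR fit (DESeq2 called 6 lower and the fit of all 14 libraries 5), although the median was −2.45. The tuft genes summed to 67.1 and 128 CPM in colon WT, 45.1 and 69.2 in colon KO, 119 and 732 in ileum WT and 73.0 and 74.6 in ileum KO. Ileum WT 2 stood apart here, and without it the median shared log2 fold change was −1.15. Dclk1 was at 109 CPM in that library and 5.86 CPM in ileum WT 1.

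Lists of the secretory pathway's machinery had smaller medians than the goblet and Paneth products. Over all genes tested 1.76% were called lower, to be set beside the counts that follow. Of 27 endoplasmic reticulum (ER) folding and disulfide enzymes 8 fell (median log2 −0.48), of 37 genes of ER entry and early transport 12 fell (−0.37), and of 18 genes of the unfolded protein response 2 fell (−0.35), with no rise in any of the 3 lists. Txndc5, a protein disulfide isomerase, stood at 487 and 668 CPM in colon WT, 226 and 234 in colon KO, 577 and 611 in ileum WT and 199 and 177 in ileum KO. The 4 KO libraries lay within 177 to 234 CPM and the 4 WT libraries within 487 to 668 CPM, and Txndc5 fell 2.81-fold (log2 −1.49, SE 0.12, adjusted p = 0.00471), called without any 1 library. Pdia5, another isomerase, fell 2.25-fold (SE 0.12, adjusted p = 0.0088), from 90.5 and 99.4 to 35.4 and 33.5 CPM in colon and from 63.4 and 61.5 to 32.4 and 35.7 CPM in ileum, the deeper change being in colon. Dnajc10, an ER reductase, fell 2.04-fold, Dnajb9, a cochaperone, 1.38-fold and Fkbp11, a prolyl isomerase of secretory cells, 5.96-fold.

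Along the transport route, Tmed3, a cargo receptor of early vesicles, fell 2.01-fold (adjusted p = 0.0123), from 89.3 and 103 to 52.8 and 51.9 CPM in colon and from 62.6 and 84.3 to 36.6 and 29.9 CPM in ileum. Kdelr3, a receptor that returns ER proteins, fell 5.89-fold, the signal peptidase subunit Sec11c 1.41-fold and Tram1, which helps proteins enter the ER, 1.49-fold. The most abundant members gave small values that did not pass: P4hb had log2 −0.26 (adjusted p = 0.224), Pdia3 −0.24 (0.255), Calr −0.28 (0.297), Sec61a1 −0.31 (0.211) and Rpn1 −0.25 (0.28). In the unfolded protein response, Edem3 and Edem2, which feed misfolded glycoproteins to degradation, had log2 fold changes of −0.53 and −0.56. Edem1 missed the threshold (log2 −0.37, adjusted p = 0.054), and Sel1l stood at −0.09. The counts of these lists moved with single libraries. ER entry and transport had 0 calls without colon KO 1 or colon WT 2 and 12 without ileum WT 1, and ER folding had 1 without colon KO 1 and 8 without ileum WT 2. DESeq2 called 22 and 16 of these 2 lists and 10 genes of the unfolded protein response, whereas sums per number gave 0, 1 and 0. ER folding had 5 calls with the shared number as a random effect, and ER entry and transport 7 by the average of the tissue effects.

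Enzymes that build O-linked mucin glycans fell in 7 of 37 cases (18.9% against 1.76% of all genes), with none higher and a median of −0.32. Fut2, the fucosyltransferase of secreted H antigen, fell 2.33-fold, from 405 and 428 to 225 and 226 CPM in colon and from 76.7 and 114 to 33.0 and 30.9 CPM in ileum (SE 0.17, adjusted p = 0.0209). Of the transferases that start O-glycans, Galnt12 fell 2.17-fold, Galnt3 1.82-fold and Galnt7 1.56-fold, and C1galt1, which makes the core 1 chain, fell 1.69-fold. The abundant B4galnt2 (log2 0.10) and St3gal4 (0.04) overlapped between KO and WT. None of the glycosylation genes was called without colon KO 1, colon WT 2, colon KO 2 or ileum KO 2, 1 was on sums per number and 12 were with DESeq2.

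**Figure D3:**
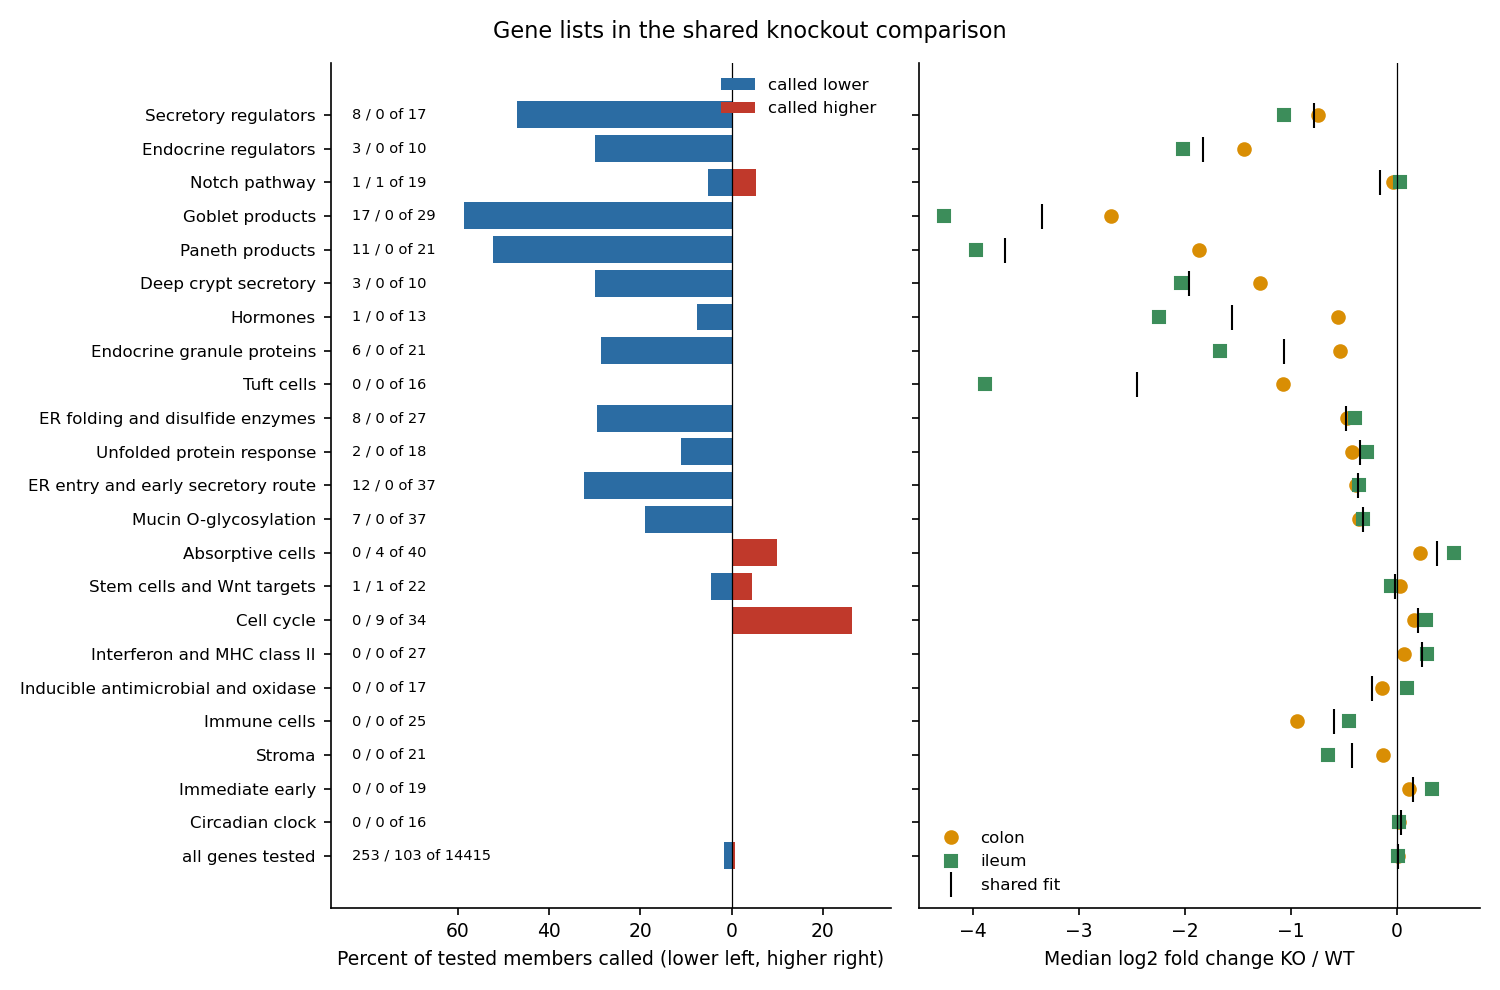
Left, percent of the tested members of each list called lower (blue, to the left) and higher (red, to the right) in the shared fit, with the counts lower / higher of tested. Right, median log2 fold change KO against WT of the tested members in colon (circles), ileum (squares) and the shared fit (bars). Goblet and Paneth products reach furthest left, at 17 of 29 and 11 of 21, the cell cycle furthest right, at 9 of 34, and all genes tested sit at 253 lower and 103 higher of 14415.

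Rises were smaller. By the smaller of the 2 tissue changes, the leading rise among genes with at least 10 CPM was Mcpt1, a mucosal mast cell protease, 2.49-fold, followed by Ahcy, the hydrolase of S-adenosylhomocysteine. Ahcy stood at 14.7 and 12.3 CPM in colon WT, 25.6 and 27.3 in colon KO, 12.2 and 13.7 in ileum WT and 29.4 and 31.3 in ileum KO, a 2.15-fold rise (SE 0.10 in log2, adjusted p = 0.00608). Its WT libraries lay within 12.2 to 14.7 CPM and its KO libraries within 25.6 to 31.3 CPM whatever the tissue, and Ahcy was the 1 rise called without any 1 library. Processed copies of Ahcy exist in the mouse genome, so its count is uncertain. Gprc5a, an orphan G protein-coupled receptor, rose 2.39-fold, from 203 and 196 to 394 and 324 CPM in colon and from 17.3 and 18 to 57.5 and 59.6 CPM in ileum (adjusted p = 0.0219). Hbegf, a ligand of the epidermal growth factor receptor, rose 1.83-fold (adjusted p = 0.0256) and the tight junction protein Cldn4 1.95-fold (adjusted p = 0.0317). Ndufs5, a subunit of respiratory complex I, rose 2.13-fold (adjusted p = 0.0269), and Cyp4f14, a fatty acid hydroxylase, 1.57-fold (adjusted p = 0.043).

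Some rises were large but of genes with low levels in ileum, and are named after their values were seen. Rims4, a protein of exocytosis sites, rose from 3.25 and 3.74 to 28.8 and 27.1 CPM in colon and was at 0.195 and 0 CPM in ileum WT and 0.617 and 1.59 CPM in ileum KO (log2 3.03, SE 0.34, adjusted p = 0.00909). Qpct, a glutaminyl cyclase, rose from 1.46 and 1.16 to 12.9 and 15.8 CPM in colon and from 0.683 and 0.215 to 1.75 and 1.49 CPM in ileum (log2 2.86, adjusted p = 0.0207).

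Absorptive cell genes moved upward in a minority: 4 of 40 rose (10% against 0.715% of all genes), none fell, and the median was 0.38. Slc15a1, the intestinal peptide transporter, rose 1.75-fold, from 60.6 and 57.4 to 84.1 and 114 CPM in colon and from 256 and 208 to 443 and 401 CPM in ileum (log2 0.81, SE 0.11, adjusted p = 0.0207). The peptidase Mme and the phospholipase Plb1 rose too, and their counts lay in ileum: Plb1 was at 0.279 to 0.673 CPM in the colon libraries, where the groups overlapped. The abundant Anpep had log2 −1.37 in colon and 0.68 in ileum and Krt20 had 0.45 and 0.91, and neither passed (adjusted p = 0.882 and 0.242). No absorptive gene was called without colon KO 2, ileum KO 1 or ileum KO 2, and 7 were without colon WT 1. The average of the tissue effects called 1, sums per number 0 and DESeq2 9.

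Of 34 cell cycle genes tested 9 were called higher (26.5% against 0.715% of all genes), none lower, and the median was 0.19. Ccnb1, the mitotic cyclin, stood at 11.4 and 9.71 CPM in colon WT, 15.6 and 15.3 in colon KO, 18.1 and 21.6 in ileum WT and 30.1 and 34.7 in ileum KO (1.55-fold, SE 0.10 in log2, adjusted p = 0.0297). Aurkb, the kinase of the chromosomal passenger complex, stood at 30.3 and 29.8 against 43.5 and 39.2 CPM in colon and at 57.8 and 57.4 against 74.4 and 79.7 CPM in ileum (1.36-fold, adjusted p = 0.0207). The replicates lay close together, so changes of this size passed. The spindle checkpoint kinases Bub1 and Bub1b rose 1.36-fold and 1.31-fold, and Ccna2 1.29-fold. Outside the list and chosen after their values were seen, the kinetochore proteins Cenpf (log2 0.51, adjusted p = 0.0151) and Cenpe (0.51, 0.0209), the spindle motor Kif15 (0.47, 0.0157) and the kinases Nek2 (0.54, 0.0205) and Ttk (0.56, 0.0245) rose as well. The replicative helicase genes Mcm2 to Mcm7, grouped after their values were seen, had log2 fold changes of 0.02 to 0.22 and none of the 6 passed. Top2a missed the threshold (log2 0.33, adjusted p = 0.0555) and Ccnd1 went −0.33 in colon and 0.61 in ileum. No cell cycle gene of the list was called without colon WT 2 or without any 1 of the 4 KO libraries, 2 were without colon WT 1 or ileum WT 1 and 12 without ileum WT 2. With all 14 libraries in the fit the list had 1 call, on sums per number 0, by the average of the tissue effects or with the shared number as a random effect 5, and with DESeq2 14.

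Of 22 stem cell and Wnt target genes tested, 1 rose and 1 fell (4.55% each, against 0.715% and 1.76% of all genes). The median was −0.02 and the range −1.43 to 0.59. Smoc2, a secreted matrix protein of crypt base stem cells, rose 1.48-fold, from 48.6 and 52.6 to 77.1 and 72.9 CPM in colon and from 124 and 127 to 178 and 196 CPM in ileum. Its log2 fold change was 0.57 in each tissue (shared SE 0.06, adjusted p = 0.0088), and without colon KO 1 the call was lost (adjusted p = 0.0540). Ephb3, a receptor of crypt base cells, fell 2.31-fold, from 43.6 and 60.3 to 27.4 and 25 CPM in colon and from 43.5 and 77.4 to 24.1 and 21.1 CPM in ileum (adjusted p = 0.033). Lgr5, the receptor that marks crypt base stem cells, had a log2 fold change of 0.37 (SE 0.16, adjusted p = 0.292), and Prom1 −0.04.

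**Figure D4:**
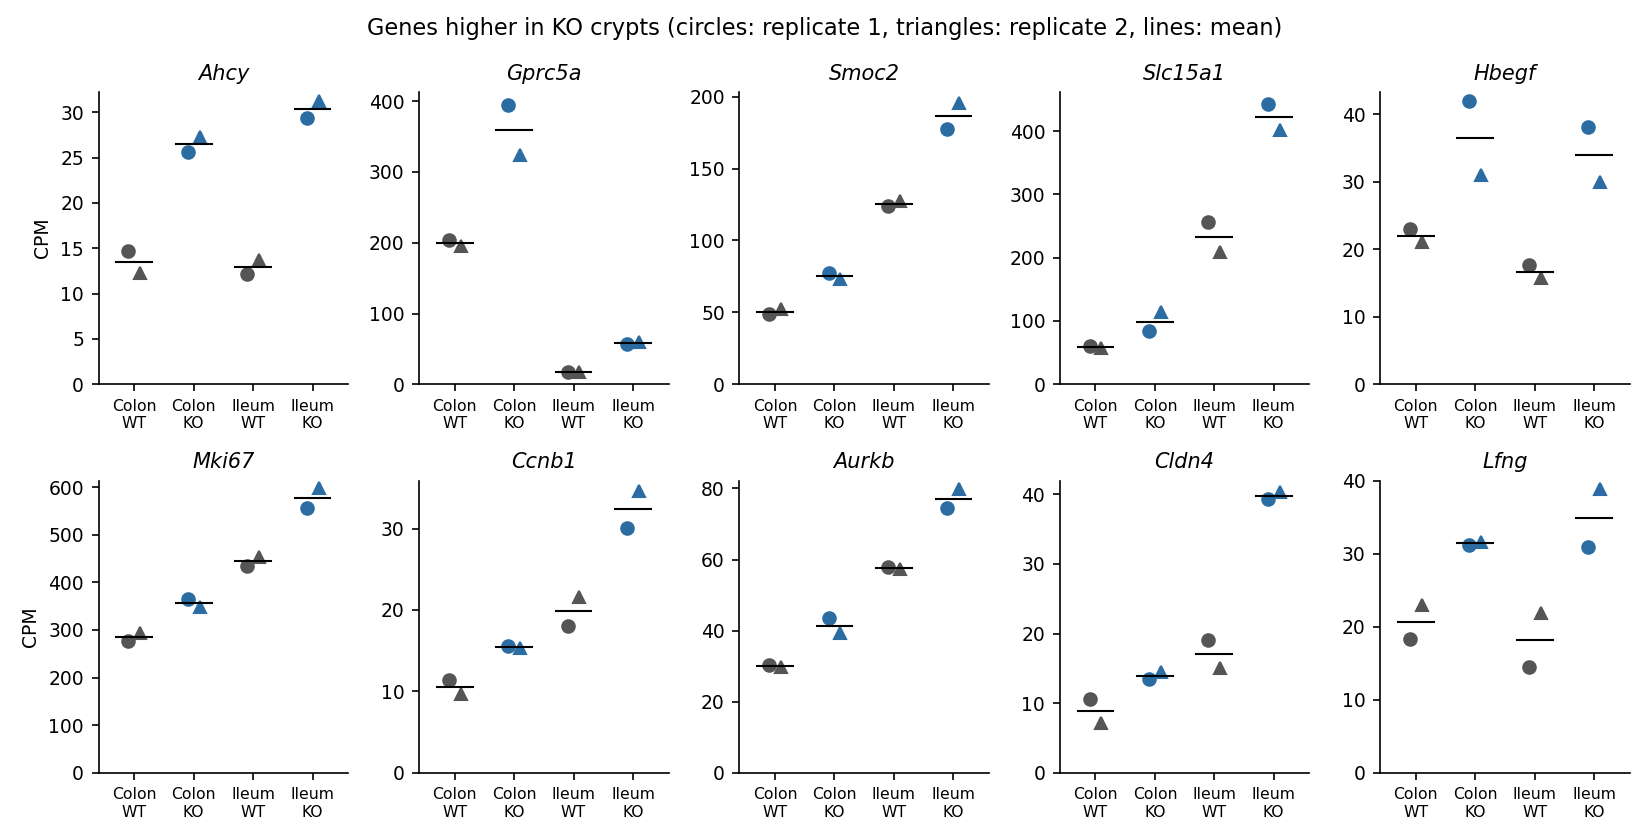
CPM on a linear axis for 10 genes higher in KO crypts, 1 panel per gene, with WT in grey and KO in blue for each tissue, circles for replicate 1, triangles for replicate 2 and lines for the mean of 2 libraries. In each panel both KO libraries lie above both WT libraries of the same tissue, with Ahcy at the same levels in colon and ileum and Gprc5a mainly in colon.

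Markers of other cells and states were read beside these groups. Among 25 immune and 21 stromal genes, none was called in the shared edgeR fit (the median shared log2 fold changes were −0.60 and −0.43). DESeq2 called 1 immune gene and no stromal gene. The immune genes summed to 359 and 274 CPM in colon WT, 210 and 178 in colon KO, 828 and 107 in ileum WT and 452 and 380 in ileum KO, so they were lower in KO in colon and overlapped in ileum. Without ileum WT 1 the immune median was 0.06. The stromal sums overlapped in colon (275 and 230 CPM in WT, 168 and 255 in KO) and in ileum (276 and 89.0 in WT, 128 and 115 in KO). The T cell gene Cd3e stood at 2.15 to 12.9 CPM over the 8 libraries. Their part in the results was not tested. No gene of the interferon and MHC class II list (27 tested), the inducible antimicrobial list (17), the immediate early list (19) or the circadian list (16) was called in the shared edgeR fit. DESeq2 called 1, 2, 2 and 0 of them. The fit of all 14 libraries called 2 inducible antimicrobial genes lower and 1 immediate early gene higher. With a replicate block 3 immediate early genes were called higher. In the interferon and MHC class II list, ileum WT 2 stood at 1874 CPM in sum against 4705 to 5653 CPM in the other ileum libraries.

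The additive fit can also call a gene that moves in 1 tissue alone. Of the called genes, 11 falls and 2 rises had KO and WT libraries that overlapped in 1 tissue. Of these falls, 10 were separated in ileum only, Defa29, Defa21, Defa26 and Defa17 among them, and 1, Sult1a1, in colon only. The rises were Plb1, separated in ileum, and Fer1l4, separated in colon. Habp2, from the Paneth list, had log2 0.20 in colon and −4.35 in ileum.

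How far the calls rest on single libraries differed between genes. The count fell to 19 without colon KO 1, 66 without colon KO 2, 49 without ileum KO 1, 42 without ileum KO 2, 43 without colon WT 2 and 200 without colon WT 1, was 259 without ileum WT 1 and rose to 491 without ileum WT 2. In each of these fits 1 group holds 1 library, which is assumed to vary like the others. The genes called in all 8 of them numbered 15, among them Cbfa2t3, Gfi1, Tff3, Sval1, Slc12a8, Txndc5, Rap1gap, Defa29 and Ahcy. The others of the 15, named because of this, were Gm3054, Best2, Ces1c, Rassf6, Cracr2b and an Ensembl gene without a symbol (ENSMUSG00000065957). Gm3054, a predicted gene, had the smallest adjusted p together with that gene (0.000205), at 271 and 356 against 11.7 and 9.98 CPM in colon and 124 and 208 against 7.30 and 7.05 CPM in ileum (log2 −4.70, SE 0.21). The counts of ENSMUSG00000065957 lay in ileum. Scaled together with the sorted cells, it stood at 185 and 188 against 15.5 and 13.0 CPM there. In colon it stood at 0.0866 and 0.273 against 0 and 0.0702 CPM. Ces1c was likewise low in colon, at 0.779 and 0.683 against 0 and 0.0702 CPM on that scale. Best2, a bestrophin anion channel, stood at 42.8 and 31.5 against 3.81 and 1.63 CPM in colon and at 0.488 and 0.753 against 0 CPM in ileum (adjusted p = 0.0088). Rassf6 (log2 −0.95) and Cracr2b (−0.70) fell by less than 2-fold with an SE of 0.10 and 0.07.

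When the colon and ileum counts of each genotype and number were summed, which leaves 2 KO sums against 2 WT sums, 18 genes were called, 17 lower and 1 higher (the higher was Rims4). Of these 16 were also among the 356, including Atoh1, Cbfa2t3, Tff3, Fcgbp, Zg16, Hepacam2, Hpd, Bcas1, Pdia5, Ccl6, Rep15 and Ano7. Only Cbfa2t3, Tff3, Gm3054 and ENSMUSG00000065957 were called both there and without each library in turn. With the shared number as a random effect (limma-voom, estimated correlation 0.117) 231 genes were called, 171 lower and 60 higher.

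**Figure D5:**
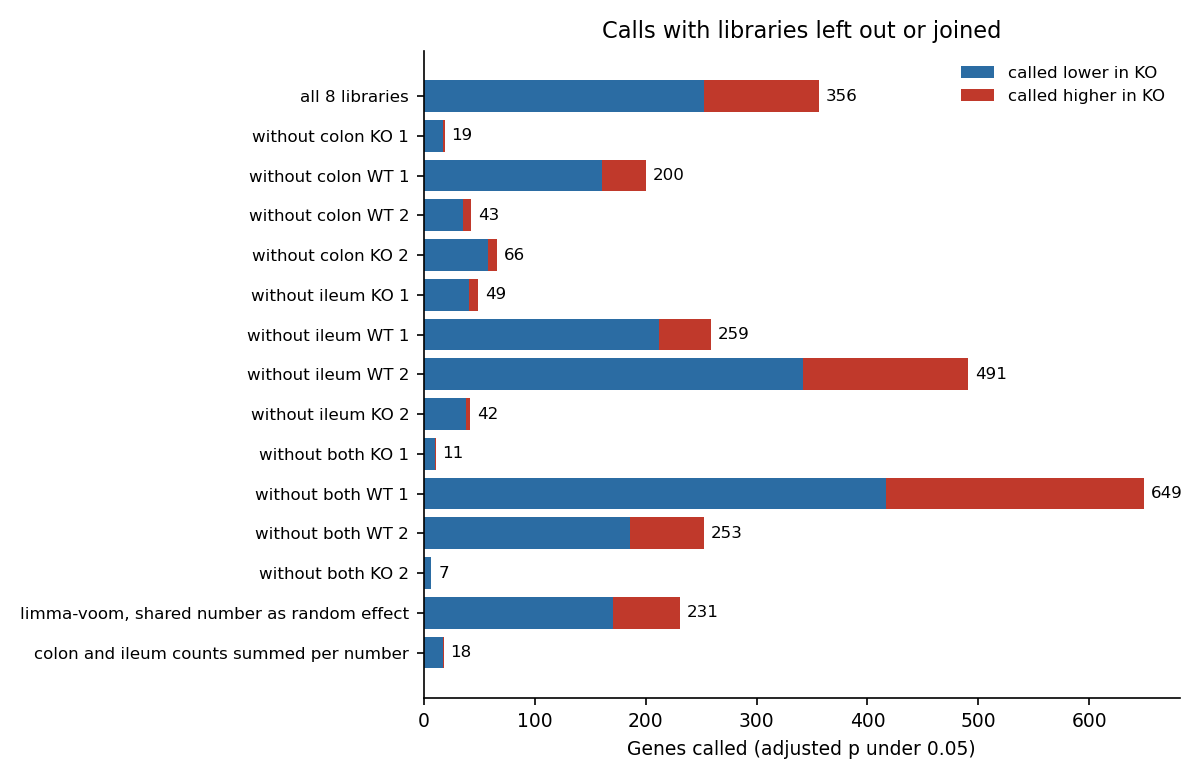
Number of genes called lower (blue) and higher (red) in the shared comparison with all 8 libraries, without each library, without both libraries of 1 genotype and number, with the shared number as a random effect, and on colon and ileum counts summed per number. The bars run from 7 without both KO 2 libraries to 649 without both WT 1 libraries, against 356 with all 8.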

How the data were processed

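RNA was measured in crypts of mouse colon and ileum. The authors deposited 1 table of raw counts per gene for each library. Alignment was by TopHat 1.4.1, counting by HTSeq and the build mm9, per the submitters' processing notes. Of HTSeq's version, strand setting and annotation release the sources used here say nothing, so reads of overlapping or antisense genes may be mixed. Tables hold 36536 Ensembl genes, of which 31004 took a symbol from GENCODE M21, an annotation of another build, so no gene coordinates of it are used. HTSeq's special lines entered neither library sizes nor tests, and reads outside genes made up 9.30 to 13.2% of uniquely placed reads.

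Groups came from the sample titles. The test on counts was edgeR's quasi-likelihood test (edgeR 4.0.16, R 4.3.3, TMM scaling, filterByExpr by the 4 groups, robust fit, model tissue + genotype) on the 8 crypt libraries, with Benjamini-Hochberg adjustment over 14415 genes. Genes were called at an adjusted p under 0.05. Adjusted p-values in the text are from edgeR unless another tool is named. The SE is the absolute log2 fold change divided by the square root of F. Tissue log2 fold changes came from a fit of the 4 groups and the difference between tissues from its interaction term. The biological coefficient of variation was 0.198. Counts of replicate libraries differed beyond sampling noise in each group (chi-square for a gene, on average, from 11.2 in colon KO to 92.9 in ileum WT). The test was checked on simulated counts with known changes, drawn independently for each library. This check does not cover libraries that share an animal.

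The members and the 23 gene lists (546 entries, 536 matched, 501 tested) were chosen with earlier results of these data known. Some called genes, such as Agr2, Dll1, Copz2 and Galnt12, are in more than 1 list, so the counts of the lists are not separate. The naming rule took Atoh1, the 14 falls and 14 rises with the largest smaller tissue change among called genes separated in both tissues, at a mean of 10 CPM or more and without a predicted-gene symbol (166 falls and 88 rises qualified), up to 5 called and 3 uncalled members per list, and every member of the regulator, Notch and sex chromosome lists. The text names part of these, and says where it names others. Alternatives were the Wald test of DESeq2 1.42.0, its size factors within edgeR, TMM on libraries less the genes that exceed 1% of a library, every gene with a count in place of the filter, the mean of the tissue effects, all 14 libraries, a replicate block, limma-voom (limma 3.58.1) with the shared number as a random effect, counts summed per number, and each library or pair of same-numbered libraries left out. Limma-voom without the random effect was added after the data were seen. A few members of the lists are counted in them but not reported here by name.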

Additional observations from a re-analysis of the deposited data

Results flagged for a closer look

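Anxa13, an annexin of the intestinal epithelium, was the 1 gene called by the interaction term in edgeR with all 8 libraries and the filter on low counts. Its log2 effect in colon minus that in ileum was −5.15 (edgeR adjusted p = 0.0018). Colon KO crypts held 0.837 and 0.817 CPM against 15.6 and 21.1 CPM in colon WT, a log2 fold change of −4.46. Ileum KO crypts held 239 and 231 CPM against 147 and 145 CPM in ileum WT, a log2 fold change of 0.69. In each tissue KO and WT did not overlap, in opposite directions, and the shared effect averaged over them did not pass (log2 −0.84, adjusted p = 0.705). Neither the limma-voom fit nor the fits without 1 of the colon KO libraries gave this interaction call.

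In 2 other genes named above, KO and WT libraries were separated in opposite directions in the 2 tissues and the interaction did not pass. Ccnd1, a cyclin of the first gap phase, stood at 161 and 185 CPM in colon WT, 142 and 133 in colon KO, 365 and 261 in ileum WT and 522 and 435 in ileum KO. Its log2 effect in colon minus that in ileum was −0.95 (edgeR adjusted p = 0.965). Anpep, a brush border peptidase, stood at 25 and 7.49 CPM in colon WT, 5.77 and 6.71 in colon KO, 6745 and 2718 in ileum WT and 7909 and 7278 in ileum KO, with a difference of −2.05 (adjusted p = 1.00). Of all genes tested, 2.98% were separated in opposite directions.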

How the results depend on the processing

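Against 356 calls (253 lower, 103 higher, 343 the same way in both tissues), the DESeq2 test gave 938 (582, 356 and 867), limma-voom with the shared number as a random effect 231 (171, 60 and 208) and sums per number 18 (17 and 1). The fit of all 14 libraries gave 330 calls (309 lower, 21 higher). Size factors (364), no genes above 1% (347), no filter (348), the mean of the tissue effects (353) and limma-voom without the random effect (385) stayed within 1.5 times in number. The genes were partly others. Of the 356, the mean of the tissue effects kept 253 (195 falls and 58 rises) and no filter kept 287. The fit of all 14 libraries kept 171 (156 falls and 15 rises). The replicate block gave 318 calls (229 lower, 89 higher, 303 the same way). Numbers 1 and 2 are not known to pair KO with WT, and the differences between them correlated at −0.00656 in colon and 0.0718 in ileum across genotypes. Leaving out 1 library gave 19 to 491 calls, 17 to 342 lower, 2 to 149 higher and 18 to 472 the same way. Leaving out both libraries of a genotype and number gave 11 without KO 1 (10 lower, 1 higher, 11 the same way, 5 of them sex chromosome genes), 649 without WT 1 (417, 232 and 630), 253 without WT 2 (186, 67 and 247) and 7 without KO 2 (7 lower, 0 higher, 7 the same way). At an unadjusted p under 0.05, this last fit held 1444 genes. The interaction called 1 gene, 9 with no filter, 56 with DESeq2, 0 with limma-voom (656 at an unadjusted p under 0.05) and 0 to 335 without 1 library, 335 without ileum WT 1 and 0 without colon KO 1 or colon KO 2. The cause of these moves was not tested, beyond fewer libraries where some were left out. No gene called in the shared fit and named here changed direction in any alternative. Of those not called, Anpep had log2 0.289 and 0.236 in limma-voom with and without the random effect, 0.558 on sums, 0.655 without WT 1 and −0.649 to 0.341 without 1 library, and Anxa13 0.312, 0.156 and 0.446 in the first 3 of these. Sums gave St3gal4 −0.0283. Without both KO 2 libraries Xist had −0.568, and without both KO 1 libraries St3gal4 had −0.0847, Prom1 0.00293 and Mcm2 −0.0145. Without both WT 1 libraries Cd3e had 0.353, Sox4 −0.0989, St3gal4 −0.0786, Tox3 −0.142, Prom1 0.109 and Mcm2 −0.0525, and without both WT 2 libraries Foxa1 had 0.0161, B4galnt2 −0.0752 and Cbfa2t2 0.0147. Leaving out 1 library gave −0.0445 to 0.275 for Ccnd1, −0.0587 to 0.00861 for Cbfa2t2, −0.0507 to 0.133 for St3gal4, −0.0577 to 0.163 for Tox3, −0.128 to 0.0848 for Prom1 and −0.0251 to 0.0706 for Mcm2. The genes called in all 8 other fits on separate libraries numbered 103, and 28 of the 356 had no call in any fit that leaves out 1 library. Genes with few counts in 1 tissue, such as Neurog3 and the defensins in colon, have wide errors there.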

Other observations

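Enzymes of amino acid and polyamine synthesis were among the falls in both tissues. They were grouped after their values were seen, and the other enzymes of these routes were not counted. Asns, which makes asparagine, stood at 65.0 and 60.7 CPM in colon WT, 35.4 and 41.0 in colon KO, 114 and 112 in ileum WT and 67.2 and 55.7 in ileum KO (log2 −0.80, SE 0.09, edgeR adjusted p = 0.0088), and lost its call in 1 of the 8 fits that leave out a library, that without colon KO 1 (adjusted p = 0.0540). In proline synthesis, Aldh18a1 fell by the same log2 amount in each tissue (−0.77, adjusted p = 0.0194) and Pycr1 fell by 2.25 on the log2 scale (adjusted p = 0.0207). Oat, which links ornithine to the same route, fell by 0.54 (adjusted p = 0.0317), Cbs, which makes cystathionine, by 0.97 (adjusted p = 0.0316) and the spermidine synthase Srm by 0.65 (adjusted p = 0.0358). The latter 5 were called in 2 or 3 of the 8 fits.

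Mast cell genes, also grouped after their values were seen, were read as raw counts. Mcpt1 had 137 and 142 counts in colon WT, 295 and 404 in colon KO, 99 and 50 in ileum WT and 241 and 166 in ileum KO. Mcpt2 had 56 and 51, 138 and 188, 44 and 14, and 99 and 70 counts in the same order, and Cpa3 had 9 and 9, 16 and 14, 3 and 3, and 18 and 11. Cma1, the chymase of connective tissue mast cells, went the other way in colon, with 42 and 42 counts in WT and 19 and 14 in KO. The other 5 genes of this group, Fcer1a, Mcpt4, Ms4a2, Tpsab1 and Tpsb2, had at most 9 counts in a library, and Tpsb2 had 1 and 6 counts in ileum WT and none in ileum KO. In sorted colon ATOH1-GFP cells, scaled together with the crypts, mean Cma1 was 3.16 CPM against 3.25 CPM in colon WT crypts. By the same comparison Mcpt1 was 0.083 against 10.8 CPM, Mcpt2 0.0415 against 4.17 CPM and Cpa3 0.358 against 0.697 CPM. Which cells carried Cma1 was not tested. Mcpt1 and Mcpt2 are close paralogs, so the split of reads between them is uncertain. Mcpt1 was called in 3 and Mcpt2 in 2 of the 8 fits that leave out a library.

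In the sorted ATOH1-GFP cells, scaled together with the crypts, Gprc5a stood at 20.9 ± 5.99 CPM in colon and 0.603 ± 0.258 CPM in ileum (SD, n = 3). Its levels were 154 ± 4.78 and 13.7 ± 0.278 CPM in the WT crypts of these tissues and 278 ± 39.1 and 44.4 ± 1.02 CPM in the KO crypts (n = 2). Ahcy stood at 32.1 ± 10.5 and 36.8 ± 3.88 CPM in the sorted cells of colon and ileum, 20.5 ± 0.904 and 23.0 ± 0.950 CPM in KO crypts and 10.4 ± 1.35 and 10.04 ± 0.729 CPM in WT crypts. Sorting and genotype cannot be told apart in such values, and the WT crypts are those of the shared comparison.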
